A study of Mus musculus with 16 samples.

Results

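C1q macrophages are the tumor leukocytes that carried transcripts of complement C1q in quantity, and a gated class of them was examined here in 2 mouse tumors with and without radiation. The cells were chosen by their measured UMIs (unique molecular identifiers, 1 per captured RNA molecule). The first rule of the gate was that C1qa, C1qb and C1qc together made up at least 2 of every 1000 UMIs. Cells with a UMI of Fcrl5, of Cd3d or of Cd3e, or with more than 1 UMI of Mki67 and Top2a together, were left out. The gate held 1287 cells, which was 7.87% of the 16349 CD45+ barcodes kept and came from 28678 barcodes called in all. In MC38 tumors it held 165 cells without and 153 with radiation, and in Panc02-SIY tumors 606 without and 363 with it.

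C57BL/6J mice aged 6 to 8 weeks carried subcutaneous MC38 tumors, a colon carcinoma line, or Panc02-SIY tumors, a pancreatic carcinoma line with the model antigen SIY. Tumors were left untreated or received 12 Gy in a single image-guided dose, and live CD45+ cells were sorted 24 hours later and profiled by droplet 3' RNA sequencing. Each of the 4 groups had 4 libraries. The series text gives 4 animals per group and the methods give 3, and the animal behind each library is not stated, so every p-value here measures the spread between libraries. Each tumor type is 1 implanted line, so tumor type and line cannot be told apart.

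C1q is the recognition unit of the classical complement pathway and is made mainly by macrophages rather than by the liver. In tumors, macrophages rich in C1q are known for clearing dying cells, for Apoe and Trem2, which serve lipid transport and lipid sensing, and for presenting antigen on MHC class II. Ionizing radiation activates p53, which drives cell cycle arrest and death genes, and can also induce type I interferon, which drives interferon-stimulated genes.

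The libraries differed in depth, and this bears on every comparison between the tumors. Total UMIs per library ranged from 3240877 to 43776342, and the gated cells of a library summed to 127485 to 1744052 UMIs. The median gated cell held 25236 UMIs in untreated and 22559 in irradiated MC38 tumors, but 1619.5 and 2358 in the Panc02-SIY groups. Cells of at least 5000 UMIs made up 76.4% and 77.8% of the MC38 cells and 16.7% and 35.3% of the Panc02-SIY cells. The Fcrl5 rule added to this difference. It alone removed 315 of 921 cells (34.2%) in untreated and 256 of 619 (41.4%) in irradiated Panc02-SIY tumors, and 0 of 165 and 0 of 153 cells in MC38. In untreated Panc02-SIY tumors an Fcrl5 UMI was seen in 9.64% of cells below 1000 UMIs and in 77.6% of those with 10000 to 20000, so the gate kept shallow cells there more often than deep ones.

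Barcodes were also shared between MC38 libraries. Of 318 gated MC38 cells, 224 (70.4%) had a barcode that was called in more than 1 MC38 library, against 5 of 969 (0.516%) in Panc02-SIY. Of 2632 distinct MC38 barcodes called, 769 were in all 8 MC38 libraries, untreated and irradiated, against 60 of 18136 in Panc02-SIY. The source of this sharing was not tested, and it leaves the independence of the MC38 libraries uncertain. Only the copy with the most UMIs was used, which held a median of 78.9% of the barcode's UMIs, and the second copy held a median of 5.15% of the richest one. Irradiated MC38 replicate 1 held 9 gated cells and was left out of the gene tests, which therefore used 15 libraries. In a principal component analysis the first component (49.3% of the variance) separated the tumors, and on the second (15.1%) untreated Panc02-SIY replicate 1 stood at 49.2 while the other libraries lay between -12.1 and 3.096.

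The values that chose the cells are given as a description only. Summed C1q had a median of 8.51 (untreated) and 8.81 (irradiated) per 1000 UMIs in MC38 cells, and of 8.81 and 8.96 in Panc02-SIY cells. The lowest cell inside the gate had 2.01 and the highest outside 1.99 per 1000, with 73 cells between 2 and 2.5 and 72 between 1.5 and 2. C1q was also found in T cells of the same libraries, which should lack it. Pooled over cells with at least 2 UMIs of Cd3d and Cd3e (52 and 81 in the MC38 groups) it made up 0.97 (untreated) and 4.74 (irradiated) per 1000 UMIs in MC38 and 1.08 and 0.701 in Panc02-SIY, and 5.77, 13.6, 6.30 and 3.69% of them reached 2 per 1000, untreated and irradiated MC38 first. Pooled gated cells had 12.0, 11.7, 11.4 and 9.43. The part of free RNA or of doublets in the gate was not tested.

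The label was borne out by Apoe in both tumors, but by the level of Trem2 in MC38 only. Levels are in normalised CPM, where 1000 CPM stand for 1 of every 1000 UMIs of a library's gated cells after scaling, and are listed in order of replicate. Means of CPM are given ± SD (n = 4 libraries, or 3 for irradiated MC38), and fold changes on the log2 scale ± SE with the adjusted p from edgeR. Apoe, the lipid carrier (chr7:19696109-19699188 in mm10), stood at 13420, 11150, 10510 and 10980 CPM in untreated and 14850, 11140 and 11450 in irradiated MC38 libraries. In Panc02-SIY it stood at 2263, 5249, 4167 and 1914 untreated and 5728, 4042, 3712 and 2495 irradiated, so the tumors did not overlap. The groups did not overlap for 24.1% of all genes between the untreated and for 33.3% between the irradiated tumors. Trem2, the lipid-sensing receptor (chr17:48346401-48354147), had 447, 374, 466 and 444 CPM in untreated MC38 and 29.4, 28.04, 32.8 and 29.2 in untreated Panc02-SIY libraries. Pooled over T cells of the same libraries, which should lack both genes, Apoe had 783 CPM in untreated MC38 and 23 in untreated Panc02-SIY, and Trem2 had 28 and 0.18. Here and below, T cells that reached 2 C1q per 1000 UMIs are left out of these pools, which can make the levels lower. The pools held 49 (untreated) and 70 (irradiated) T cells in MC38 and 3691 and 3001 in Panc02-SIY. Trem2 was low in the gated cells of Panc02-SIY, though above its level in T cells there, and the gated cells are called here by their gate. The part of free RNA in these levels was not tested.

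Other macrophage genes were present in every library. Csf1r, the receptor for the growth factor that macrophages need, lay between 350 and 608 CPM without scaling over all 16 libraries. Adgre1, which encodes F4/80, lay between 78.1 and 526 CPM, and the lowest value was that of irradiated MC38 replicate 1.

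The gated cells made up a larger share of CD45+ cells in MC38 than in Panc02-SIY tumors. They were 19.8 ± 2.78% (SD, n = 4 libraries) of kept barcodes in untreated and 17.5 ± 4.39% in irradiated MC38, and 7.15 ± 2.54% and 4.97 ± 1.67% in the Panc02-SIY groups. By library the shares were 20, 18.4, 17.2 and 23.6% in untreated MC38 and 12, 17.4, 17.8 and 22.7% after radiation. In Panc02-SIY they were 4.91, 8.50, 5.14 and 10.1% untreated and 6.33, 3.64, 3.42 and 6.51% after radiation. Untreated and irradiated libraries overlapped in both tumors, and neither change with radiation passed an exact two-sided permutation test over libraries (MC38 p = 0.371, Panc02-SIY p = 0.2, adjusted p = 0.371 and 0.229 over 8 comparisons of shares). Both directions turned among barcodes of at least 5000 UMIs, where the differences were 0.00816 and 1.16 percentage points. No test is read for the tumor difference, since Fcrl5, on which the gate rests in part, differed between the tumors. Fewer such cells and less C1q RNA per cell cannot be told apart by a share.

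**Figure D1:**
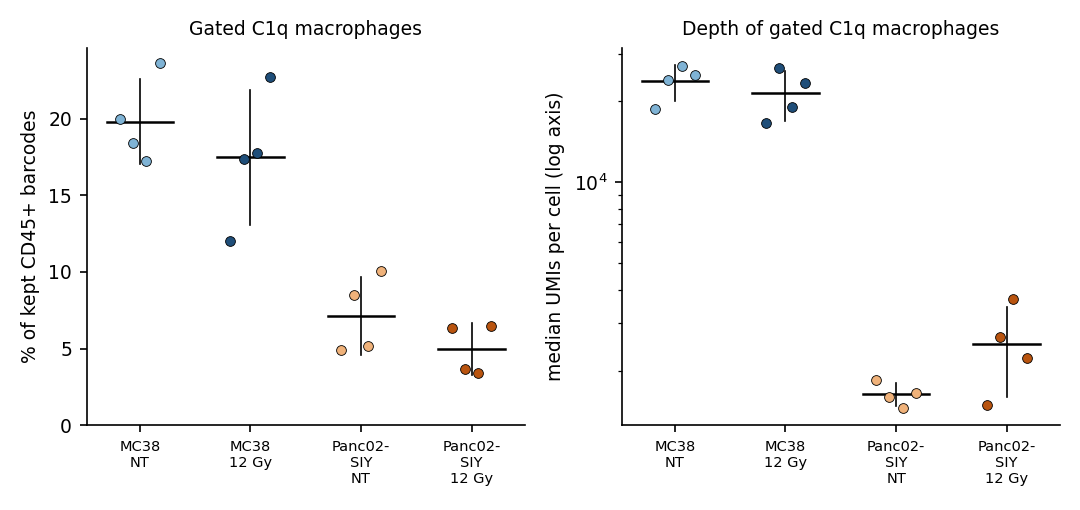
Points are libraries (NT, untreated; 12 Gy, irradiated), bars are means and lines are SD over 4 libraries. The left panel gives the percent of kept CD45+ barcodes that were gated C1q macrophages (group means from 19.8% in untreated MC38 to 4.97% in irradiated Panc02-SIY), and the right panel the median UMIs per gated cell on a log axis, where every MC38 library lies above every Panc02-SIY library.

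The question of radiation was asked within each tumor on UMIs summed per library. In all, 6902 genes passed the filter on low counts, and a gene was called when its Benjamini-Hochberg adjusted p from edgeR's quasi-likelihood test was below 0.1 and its fold change above 1.3. In MC38, 126 genes (1.83%) were called after 12 Gy, 97 higher and 29 lower. In Panc02-SIY, 174 genes (2.52%) were called, 103 higher and 71 lower. Of the genes called higher, 26 were shared, which is 26.8% of the MC38 and 25.2% of the Panc02-SIY genes, and 7 were lower in both (24.1% and 9.86%). No gene was called in opposite directions. Untreated and irradiated libraries did not overlap for 14.4% of all genes in MC38 and 6.07% in Panc02-SIY. Nor did a gene pass the test of the difference between the tumors' responses by edgeR, where 391 had an unadjusted p below 0.05 and DESeq2 called 9, so a gene called in 1 tumor is not shown to respond differently in the other.

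These counts depended on single libraries. They also depended on the fit, since MC38 had more calls than Panc02-SIY when only the groups compared were fitted. In MC38 there were 32 calls without untreated replicate 4 or without irradiated replicate 2, 61 without irradiated replicate 3, 69 without untreated replicate 3 and 80 without irradiated replicate 4. In Panc02-SIY there were 58 without untreated replicate 4 and 68 without irradiated replicate 3, and 202 without untreated replicate 1, the library that stood apart. With only those barcodes that were found in 1 library, which leaves 2 irradiated MC38 libraries, 11 genes were called in MC38 and 55 in Panc02-SIY, and with all copies of a barcode kept 23 and 456.

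Genes of the p53 response rose in both tumors. Of 40 p53 targets listed, 27 were tested, and 15 were higher in irradiated MC38 cells and none lower, where 1.41% of all genes were called higher. Their median log2 fold change was 1.25, beside 0.01 over all genes. In Panc02-SIY 11 of the 27 were higher, where 1.49% of all genes were, with a median of 1.07 beside -0.01. Bax, Ccng1, Cdkn1a, Mdm2, Phlda3, Plk2, Trp53inp1, Aen and Btg2 were called in both. The Panc02-SIY call of Aen held in 8 of 18 alternatives, that of Mdm2 in 12 of 20 and the MC38 call of Btg2 in 14 of 20, and that of Cdkn1a in MC38 was lost with all copies kept. DESeq2 gave 14 of the 27 an adjusted p and called 9 and 7 of these in MC38 and Panc02-SIY, and without the filter on low counts 20 and 16 of all 40 were called. With 1 library left out the count lay between 11 and 16 in MC38 and between 5 and 11 in Panc02-SIY (5 without untreated replicate 4 or irradiated replicate 3, 7 without irradiated replicate 2), and the median never fell below 1.16 and 0.75. Among the barcodes found in 1 library 3 of 14 tested were higher in MC38 (median 1.44) and 5 of 14 in Panc02-SIY (median 0.85). With all copies kept 8 of 33 (median 0.65) and 15 of 33 (0.78) were higher. Without the Fcrl5 rule it was 17 of 30 in MC38 (median 1.24) and 7 of 30 in Panc02-SIY (0.66). In Panc02-SIY cells of at least 5000 UMIs 4 of 27 were.

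Phlda3, which restrains AKT signaling (chr1:135766119-135769136), rose the most in MC38. It had 5.64, 1.91, 2.21 and 1.18 CPM in untreated and 122, 127 and 73.2 in irradiated MC38 libraries, so every irradiated library lay far above every untreated one (log2 fold change 5.45 ± 0.43 (SE), adjusted p = 3.58e-09). In Panc02-SIY it went from 7.35, 0, 4.102 and 2.303 to 61.3, 20.04, 34.4 and 20.4 CPM, again with no overlap (3.59 ± 0.59 (SE), adjusted p = 0.00123). Phlda3 also moved in T cells of these libraries, from 3.16 to 61.3 CPM in MC38 and from 1.74 to 42.4 in Panc02-SIY, and DESeq2 gave it no adjusted p. Among barcodes of 1 library the MC38 rise lost its call (log2 fold change 7.87, adjusted p = 0.1815).

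Cdkn1a, the p21 inhibitor that halts the cell cycle (chr17:29090976-29100727), rose as clearly. It stood at 472, 379.7, 430.3 and 344 CPM in untreated and 2231, 1946 and 1641 in irradiated MC38 libraries, and the lowest irradiated library was above 3 times the highest untreated one (2.26 ± 0.33 (SE), adjusted p = 0.00434). In Panc02-SIY it moved from 382, 92.9, 205 and 108 to 898, 788, 926 and 1144 CPM, and the highest untreated value was that of replicate 1 (2.48 ± 0.35 (SE), adjusted p = 0.00339). In pooled T cells Cdkn1a was 117 and 427 CPM in untreated and irradiated MC38, and 22.9 and 246 in Panc02-SIY, below the gated cells in each group. The gated cells pooled the same way had 374, 1632, 135 and 1086 CPM.

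Ccng1, encoding cyclin G1 (chr11:40748552-40755311), kept its call in both tumors under the alternatives tried. It had 26.3, 45.8, 57.4 and 34.9 CPM in untreated and 238, 311 and 198 in irradiated MC38 libraries (2.58 ± 0.22 (SE), adjusted p = 6.48e-09). In Panc02-SIY the values were 66.1, 47.3, 86.1 and 59.9 and 174, 180.4, 174 and 199, and the groups did not overlap in either tumor (1.57 ± 0.22 (SE), adjusted p = 0.000277). Mdm2, the ligase that degrades p53, rose from 47.4 ± 3.53 to 169.9 ± 20.2 CPM in MC38 (1.83 ± 0.19 (SE), adjusted p = 5.56e-07) and from 49.98 ± 12.1 to 76.4 ± 17.1 in Panc02-SIY (0.76 ± 0.22 (SE), adjusted p = 0.0814), where its groups overlapped. The Panc02-SIY call of Mdm2 was lost without untreated replicate 2 or 4 or without irradiated replicate 2, 3 or 4.

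Bax, which opens the mitochondrial outer membrane, went from 242 ± 57.5 to 609 ± 44.4 CPM in MC38 (1.32 ± 0.16 (SE), adjusted p = 1.12e-05) and from 154 ± 24.05 to 275 ± 21.3 in Panc02-SIY (0.81 ± 0.17 (SE), adjusted p = 0.0104), though it was not called in either tumor among barcodes found in 1 library (log2 fold changes 1.29 and 0.90). Bbc3, which encodes PUMA, was called in MC38 only, at 18.6 ± 11.4 and 57.3 ± 8.91 CPM (adjusted p = 0.0104). Zmat3, an RNA-binding p53 target, and Psrc1, a spindle protein, were also called in MC38 only, with log2 fold changes of 2.37 and 3.65. Sesn2, a stress-induced regulator of growth signaling, and Polk, a translesion DNA polymerase, were called in Panc02-SIY only, with 1.65 and 1.69. The call of Bbc3 was lost without untreated MC38 replicate 4, that of Sesn2 without untreated replicate 4 or irradiated replicate 3 of Panc02-SIY, and that of Polk with any 1 Panc02-SIY library left out other than untreated replicate 1 or irradiated replicate 1 or 4. None of the p53 targets differed in response between the tumors by the interaction test, for which Ccng1 had an adjusted p of 0.505 and Mdm2 of 0.383.

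The promoters of 2 of these genes are printed because both genes rose in both tumors and hold a match to the p53 half-site. Each is the 250 bases before the RefSeq gene start, on the gene's strand and 5' to 3' in GRCm38.p6, and capitals mark matches to the p53 half-site. Ccng1 lies at chr11:40755287-40755536 on the minus strand, with a match 185 bases upstream. Cdkn1a lies at chr17:29090729-29090978 on the plus strand, with matches 73 and 51 bases upstream.
Ccng1: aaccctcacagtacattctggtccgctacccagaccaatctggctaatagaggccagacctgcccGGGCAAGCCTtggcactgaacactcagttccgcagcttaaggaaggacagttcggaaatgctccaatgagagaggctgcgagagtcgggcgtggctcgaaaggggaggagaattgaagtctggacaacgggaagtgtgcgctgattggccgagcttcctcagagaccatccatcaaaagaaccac
Cdkn1a: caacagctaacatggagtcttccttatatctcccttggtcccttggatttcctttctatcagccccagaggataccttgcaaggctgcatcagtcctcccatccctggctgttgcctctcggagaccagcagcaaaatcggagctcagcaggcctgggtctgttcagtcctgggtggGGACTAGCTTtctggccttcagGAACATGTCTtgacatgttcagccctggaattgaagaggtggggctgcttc
The half-site was found on either strand in 7.13% of 32851 promoters and, counted per gene, in 8.2% of 27025 genes. It was in 9 of the 31 p53 targets that matched (29%). Of the matched targets called higher it was in 7 of 13 in MC38 and in 6 of 10 in Panc02-SIY. A match describes letters and is not a measured binding site.

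**Figure D2:**
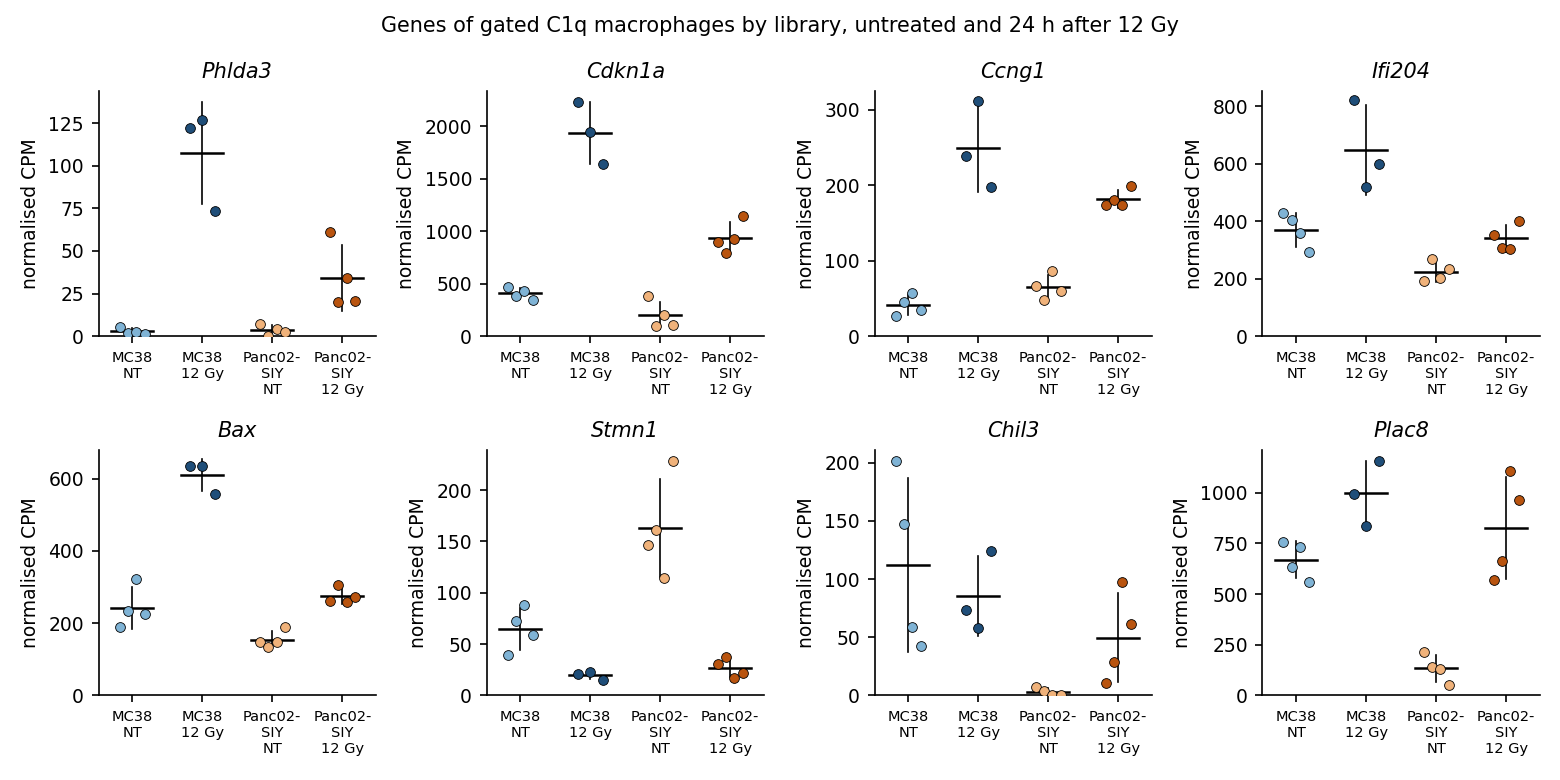
Normalised CPM of 8 genes in gated C1q macrophages, where points are libraries (NT, untreated; 12 Gy, irradiated), bars are means and lines are SD (3 irradiated MC38 libraries and 4 in each other group). Phlda3, Cdkn1a, Ccng1, Ifi204 and Bax lie higher and Stmn1 lower in the irradiated libraries of both tumors, while Chil3 and Plac8 were called in Panc02-SIY only (Plac8 133 untreated and 827 irradiated).

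Interferon-stimulated genes rose in part. In MC38 14 of 57 tested (of 59 listed) were higher and none lower, where 1.41% of all genes were called higher, with a median log2 fold change of 0.72 beside 0.01 over all genes. In Panc02-SIY 7 of 57 were higher and none lower, where 1.49% of all genes were called higher, with a median of 0.64 beside -0.01. Ifi203, Ifi204 and Parp14 were called in both, but the calls of Ifi203 held in 10 of 20 (MC38) and 13 of 21 (Panc02-SIY) alternatives and those of Parp14 in 11 of 20 and 11 of 21. Both were lost without untreated replicate 1, 3 or 4 or irradiated replicate 2 or 3 of MC38, and without untreated replicate 4 or irradiated replicate 3 or 4 of Panc02-SIY. Without irradiated replicate 4 of MC38 that of Ifi203 was lost as well, and without irradiated replicate 2 of Panc02-SIY that of Parp14. The number of genes called in MC38 was 1 without untreated replicate 4, 0 without irradiated replicate 2 and 6 without untreated replicate 3 or irradiated replicate 4. In Panc02-SIY it was 0 without untreated replicate 4, 2 without irradiated replicate 4 and 3 without irradiated replicate 3. The medians stayed between 0.61 and 0.83 in MC38 and between 0.46 and 0.68 in Panc02-SIY over these, and among barcodes found in 1 library MC38 had no call in 50 tested and a median of 0.36. With all copies kept 1 of 57 was called in MC38 (median 0.40) and 19 of 57 in Panc02-SIY (0.67). In thinned cells 1 of 30 was called in MC38 and 2 of 30 in Panc02-SIY. With C1q of at least 4 per 1000 the counts were 10 and 2 of 57, and without the Fcrl5 rule 23 and 3 of 57.

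Ifi204, a nuclear DNA sensor of the PYHIN family (chr1:173747293-173766943), was called in both tumors. It had 428, 403, 358 and 292 CPM untreated and 822, 520.3 and 599 irradiated in MC38, with no overlap (0.81 ± 0.17 (SE), adjusted p = 0.0108), and this call was lost without untreated replicate 4 or irradiated replicate 2. In Panc02-SIY it had 191, 269.9, 201 and 235 and 352, 305, 302 and 400.5, close but not overlapping (0.57 ± 0.17 (SE), adjusted p = 0.0957), and this call was lost with any 1 library left out other than untreated replicate 2. Ifit3, which hinders viral translation, went from 133 ± 27.7 to 333 ± 126 CPM in MC38 (1.32 ± 0.34 (SE), adjusted p = 0.0892), and Mx1, an antiviral GTPase, from 48.1 ± 20.9 to 153 ± 72.96 (1.73 ± 0.42 (SE), adjusted p = 0.0744). Ifi205, another PYHIN gene, stood at 51.4, 15.8, 41.02 and 11.5 CPM in untreated and 117, 129, 225 and 125 in irradiated Panc02-SIY libraries, where the lowest irradiated library was above the highest untreated one (2.87 ± 0.62 (SE), adjusted p = 0.0537). Ifi27l2a moved from 309 ± 94.3 to 777 ± 242 (1.41 ± 0.30 (SE), adjusted p = 0.0406). In MC38 the call of Ifit3 was lost with any 1 library left out other than irradiated replicate 3, and that of Mx1 likewise, except that it also held without untreated replicate 1. In Panc02-SIY the calls of Ifi205 and Ifi27l2a were lost without untreated replicate 4 or irradiated replicate 3, and that of Ifi205 also without untreated replicate 2. The PYHIN genes are close copies of each other, so reads can be split between them.

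Genes driven more by interferon gamma were not called. Of 25 such genes tested, none was called in either tumor, with medians of 0.28 in MC38 and 0.45 in Panc02-SIY. Of 16 chemokines none was called in either tumor. Ccl2, which draws monocytes, was 1343, 536, 813 and 502 CPM untreated and 1582, 1353 and 1821 irradiated in MC38, without overlap but with an adjusted p of 0.329, and its direction turned among barcodes found in 1 library.

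The promoters of 3 interferon-stimulated genes are printed because these genes rose in 1 or both tumors and hold the letters GAAANNGAAA, the core of the interferon response element, shown in capitals on either strand. Ifi203 lies at chr1:173942493-173942742 (minus strand, 35 bases upstream), Ifi205 at chr1:174031756-174032005 (minus strand, 134 bases upstream) and Ifit3 at chr19:34583279-34583528 (plus strand, 156 and 122 bases upstream), all in GRCm38.p6 from RefSeq.
Ifi203: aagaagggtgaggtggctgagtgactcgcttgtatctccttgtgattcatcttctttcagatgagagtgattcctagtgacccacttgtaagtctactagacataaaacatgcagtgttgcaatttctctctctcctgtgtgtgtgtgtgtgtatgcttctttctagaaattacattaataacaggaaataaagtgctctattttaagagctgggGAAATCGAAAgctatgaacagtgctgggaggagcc
Ifi205: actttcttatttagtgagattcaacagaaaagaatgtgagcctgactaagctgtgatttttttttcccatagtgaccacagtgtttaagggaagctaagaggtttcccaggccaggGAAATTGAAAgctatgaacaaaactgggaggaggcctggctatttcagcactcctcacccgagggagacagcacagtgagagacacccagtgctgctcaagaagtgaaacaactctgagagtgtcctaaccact
Ifit3: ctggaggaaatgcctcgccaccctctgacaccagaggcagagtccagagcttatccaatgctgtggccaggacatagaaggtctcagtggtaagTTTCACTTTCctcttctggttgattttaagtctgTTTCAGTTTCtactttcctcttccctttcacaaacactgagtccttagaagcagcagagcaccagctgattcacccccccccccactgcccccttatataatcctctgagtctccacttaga
These letters were found in 2.98% of the 32851 promoters, in 3.46% of 27025 genes and in 20 of the 44 listed genes that matched (45.5%). Of the matched genes called higher they were in 7 of 11 in MC38 and in 3 of 3 in Panc02-SIY.

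**Figure D3:**
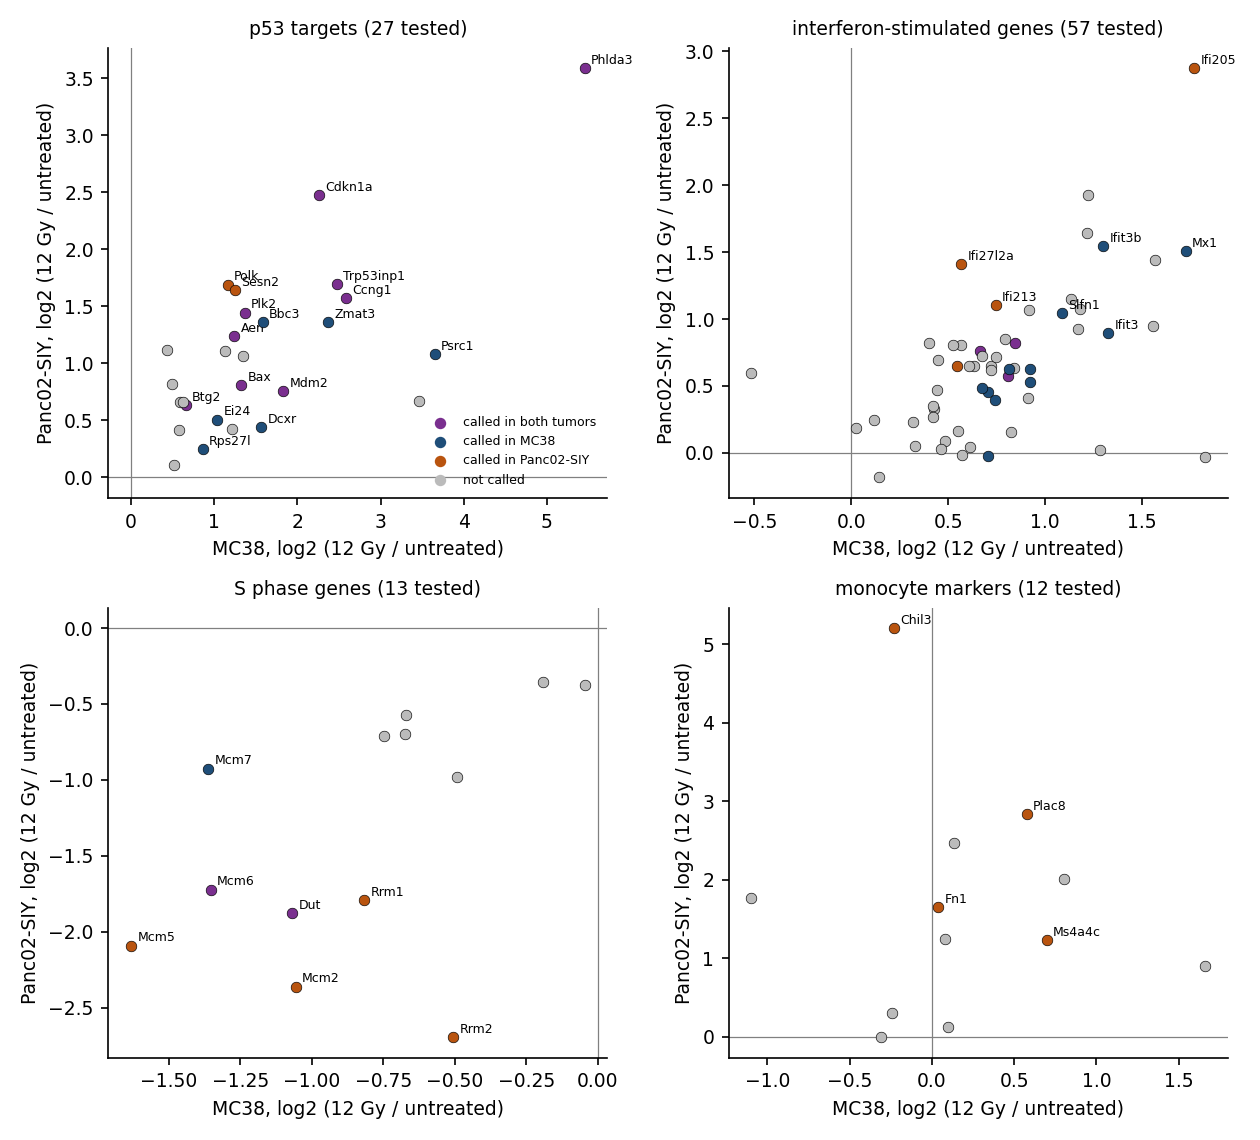
Log2 fold change with 12 Gy in MC38 (x axis) against Panc02-SIY (y axis) for the tested members of 4 gene lists, 1 point per gene, colored by the tumor in which the gene was called; lines mark 0. All 27 p53 targets lie above 0 on both axes, Phlda3 farthest out at 5.45 and 3.59, and Chil3, Plac8, Fn1 and Ms4a4c are the monocyte markers called, in Panc02-SIY only.

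Some replication genes fell, although the gate had already left out cells with more than 1 UMI of Mki67 and Top2a, a rule that removes deep cells more readily than shallow ones. Of 13 S phase genes tested (of 20 listed), 3 were lower in MC38 (0.42% of all genes were called lower) and 6 in Panc02-SIY (1.03%), with medians of -0.75 and -0.98. Mcm6, a subunit of the replicative helicase, and Dut, which clears dUTP, were called in both. Of 7 genes of G2 and mitosis, 4 were lower in Panc02-SIY (Birc5, Kif23, Ube2c and Hmgb2, median -1.21) and none was called in MC38. In Panc02-SIY cells of at least 5000 UMIs none of 9 S phase and none of 5 mitosis genes was called, with medians of -0.15 and -0.45. DESeq2 gave 2 and 2 of them an adjusted p and called none and 1, and without untreated replicate 4 the counts were 2 and 2. In MC38 no S phase gene was called without untreated replicate 4 or without any 1 of the irradiated replicates, and 1 was without untreated replicate 2 or 3. None was called there with all copies kept, among cells of at least 5000 UMIs or among barcodes found in 1 library.

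Stmn1, encoding the microtubule regulator stathmin, fell in both tumors. It had 39.5, 72.5, 88.3 and 59.2 CPM in untreated and 20.4, 22.5 and 15.4 in irradiated MC38 libraries (-1.805 ± 0.30 (SE), adjusted p = 0.000982). In Panc02-SIY it had 147, 161, 115 and 229 and 30.6, 37.9, 17.2 and 22.1, and the groups stood apart in both tumors (-2.76 ± 0.28 (SE), adjusted p = 8.62e-07). The call held under the alternatives tried in Panc02-SIY, and in MC38 it was lost among barcodes found in 1 library (log2 fold change -2.72), in thinned cells and with all copies kept. Rrm2, a subunit of ribonucleotide reductase, was 29.4, 17.5, 16.4 and 26.9 CPM untreated and 0, 8.91, 0 and 3.27 irradiated in Panc02-SIY (-2.696 ± 0.58 (SE), adjusted p = 0.0123). In MC38 Myc, the growth regulator, was also lower (38.7 ± 6.93 and 11.96 ± 7.91 CPM, -1.46 ± 0.35 (SE), adjusted p = 0.0394), as was Dkc1, which modifies ribosomal RNA (adjusted p = 0.0898). The call of Myc was lost without untreated replicate 3 or 4 or irradiated replicate 2 or 3, and that of Dkc1 held in 4 of 17 alternatives.

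Few genes of macrophage function were called. Of 13 complement genes tested 1 was higher in MC38 (Cd93) and 2 in Panc02-SIY (Cd93 and C3), and of 12 genes for the uptake of dying cells 1 was in each (Lrp1), where 1.41% and 1.49% of all genes were. Cd93, a receptor linked to the uptake of dying cells, rose from 39.9 ± 6.86 to 70.7 ± 13.2 CPM in MC38 and from 42.6 ± 20.8 to 99.5 ± 8.17 in Panc02-SIY (adjusted p = 0.0826 and 0.00123). Lrp1, a scavenger receptor, was called higher in both as well (adjusted p = 0.0709 and 0.0838). The MC38 call of Cd93 held in 6 of 19 alternatives, and the calls of Lrp1 in 10 of 20 (MC38) and 11 of 21 (Panc02-SIY). Apoe and Trem2 were not called in either tumor, with log2 fold changes of 0.12 (MC38) and 0.22 (Panc02-SIY) for Apoe and of -0.14 and 0.15 for Trem2, and the direction of each turned under at least 1 alternative.

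In MC38, 4 of 18 immediate early genes, which answer signals within minutes, were higher, where 1.41% of all genes were. Klf2, a quiescence factor, went from 67.6, 153, 112 and 111 to 307, 230.4 and 330 CPM (1.38 ± 0.26 (SE), adjusted p = 0.0104), and Dusp1, which shuts off MAP kinases, from 669, 494, 651 and 606 to 1254, 949 and 1254 (0.93 ± 0.17 (SE), adjusted p = 0.00332). Jund and Klf6 were the others (adjusted p = 0.066 and 0.0709). In Panc02-SIY none of the 18 was called, and Klf2 and Dusp1 had log2 fold changes of -0.43 and -0.12. The difference between the tumors did not pass for either gene (interaction 1.82 and 1.05, adjusted p = 0.145 for both), although that of Klf2 passed in 5 of 27 alternatives and that of Dusp1 in 4. Among barcodes found in 1 library the interaction of Klf2 was 2.95 with an adjusted p of 0.03636, and it also passed without irradiated Panc02-SIY replicate 1 or untreated replicate 1. H2-T22 and H2-T23, nonclassical MHC class I genes, were higher in MC38 (0.71 and 0.57), 2 of 13 class I genes tested, while none of 8 MHC class II genes was called in either tumor. Klf6 and H2-T22 lost their call and turned in direction among barcodes found in 1 library, and Klf2 lost its call among cells of at least 5000 UMIs and with all copies kept. The call of Klf6 was lost with any 1 MC38 library left out. The call of H2-T22 was lost without untreated replicate 2 or 4 or irradiated replicate 2, that of Jund without these or irradiated replicate 3, and that of H2-T23 held in 10 of 20 alternatives.

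In Panc02-SIY, 4 of 12 monocyte markers tested (of 14 listed) rose and none was called lower, where 1.49% of all genes were called higher, with a median log2 fold change of 1.45, whereas none was called in MC38 (median 0.09). Plac8, a gene of young myeloid cells (chr5:100553725-100572245), had 213, 138, 131 and 50.7 CPM untreated and 572, 664, 1107 and 964 irradiated, so that every irradiated library lay above every untreated one (2.84 ± 0.36 (SE), adjusted p = 0.00139). Fn1, encoding fibronectin, went from 7.35, 7.01, 4.102 and 12.3 to 25.5, 22.3, 40.1 and 29.4 CPM (1.66 ± 0.32 (SE), adjusted p = 0.004), and Ms4a4c from 117 ± 59.8 to 238 ± 83.3 (1.23 ± 0.29 (SE), adjusted p = 0.0544). Chil3, encoding the chitinase-like protein Ym1 (chr3:106147554-106167564), had 7.35, 3.505, 0 and 0 CPM untreated, which is 3 UMIs in all, and 10.2, 28.9, 97.4 and 61.3 irradiated, or 141 UMIs. The ratio of pooled levels was 46.2 (95% exact interval 15.5 to 227, counting error only), with an adjusted p of 0.0909 that passed in 6 of 19 alternatives. Ly6c2, the monocyte surface marker itself, was 88.2, 49.1, 20.5 and 17.6 and 91.9, 258, 124 and 257 CPM, without overlap and with an adjusted p of 0.143.

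These levels are read beside other cells of the same libraries. The summed monocyte markers of the gated Panc02-SIY cells were 1483, 956, 1026 and 655 CPM untreated and 2059.9, 2283, 3037 and 2674 irradiated, without overlap, and had means of 1029.9 and 2514. Over all kept CD45+ cells the means were 2015 and 3280. Plac8 was the most abundant of the list, and Vcan was at 0 in the untreated gated cells. Pooled T cells below 2 C1q per 1000 UMIs had 272 and 295 CPM of Plac8, 1.38 and 10.3 of Chil3 and 24.1 and 17.4 of Fn1. The pooled gated cells had 94.3 and 976, 1.37 and 63.5, and 10.1 and 32.4. Untreated gated cells were thus at or below the T cell level for all 3 genes, and irradiated ones above it. The part of free RNA or of monocytes in this rise was not tested. The number of monocyte markers called was 2 without untreated replicate 2 or 4 or irradiated replicate 2, 3 of 11 among barcodes found in 1 library, 2 without the Fcrl5 rule and 1 with C1q of at least 4 per 1000. The interaction of Plac8 had an adjusted p of 0.251 and that of Fn1 0.145, and each passed in 5 of 27 alternatives, that of Plac8 with an adjusted p of 0.03636 among barcodes found in 1 library.

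Among the largest changes outside the lists, Epha2, an ephrin receptor, went from 1.64 ± 1.69 CPM in untreated to 31.6 ± 4.05 in irradiated MC38 libraries (4.31 ± 0.62 (SE), adjusted p = 0.00018), and Mgmt, which repairs alkylated DNA, from 8.35 ± 6.49 to 32.6 ± 8.48 (1.94 ± 0.47 (SE), adjusted p = 0.0399). Itga6, an integrin, was lower at 77.6 ± 19.2 and 36.3 ± 2.898 CPM (-1.12 ± 0.29 (SE), adjusted p = 0.0685). In Panc02-SIY Tarm1, an activating receptor of myeloid cells, went from 9.46 ± 4.94 to 49.5 ± 7.297 CPM (2.88 ± 0.69 (SE), adjusted p = 0.063), and Ltb4r1, the leukotriene B4 receptor, from 7.72 ± 6.24 to 27.7 ± 9.66 (2.06 ± 0.56 (SE), adjusted p = 0.0723). Each was among the 10 largest called changes of its comparison and direction for which the groups of libraries did not overlap. With 1 library left out Epha2 kept its call, whereas that of Mgmt was lost without untreated replicate 4 or irradiated replicate 2 or 3, that of Itga6 without any 1 MC38 library other than untreated replicate 2, that of Tarm1 without untreated replicate 2 or 4 or irradiated replicate 2 or 3, and that of Ltb4r1 without untreated replicate 2 or 4 or any 1 irradiated library.

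Further genes were called in irradiated Panc02-SIY cells only. Vegfa, the vessel growth factor, rose from 14.7, 12.3, 16.4 and 22.3 to 61.3, 62.4, 40.1 and 58.04 CPM (1.599 ± 0.33 (SE), adjusted p = 0.00842), and Hif1a, which mediates the answer to low oxygen, from 139 ± 20.4 to 266 ± 29.1 (0.94 ± 0.20 (SE), adjusted p = 0.0119). With Pfkl, a glycolytic enzyme (1.19), these were 3 of 23 genes of glycolysis and hypoxia, where 1.49% of all genes were called higher. The count was 1 without untreated replicate 4, and Vegfa and Hif1a lost their call among cells of at least 5000 UMIs. Cd86, a costimulatory ligand for T cells, went from 102 ± 38.5 to 198 ± 19.1 (0.95 ± 0.22 (SE), adjusted p = 0.022), and Msr1, a scavenger receptor, from 151 ± 42.2 to 289 ± 45.6 (0.99 ± 0.22 (SE), adjusted p = 0.0207). Plaur and Mmp14, which act in matrix breakdown, and C3, the central complement protein, were higher as well (0.93, 0.73 and 2.35). Gclm, which serves glutathione synthesis, was lower (-1.38). Without untreated replicate 4 the calls of Hif1a, Pfkl, Cd86, Msr1, Mmp14, C3 and Gclm were lost. That of Mmp14 was also lost without untreated replicate 3 or irradiated replicate 3, that of Gclm without irradiated replicate 2, and that of C3 held in 8 of 20 alternatives.

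The 2 tumors were then compared untreated and, separately, irradiated. These comparisons share their libraries with those of radiation. Of 6902 genes, 2335 (33.8%) were called between untreated MC38 and Panc02-SIY cells, 1165 higher in MC38 (16.9%) and 1170 lower (17%), and 2195 (31.8%) between irradiated cells, 1153 higher (16.7%) and 1042 lower (15.1%). These shares over all genes are the background for the counts of each list between the tumors below. Depth, the Fcrl5 rule and the tumor line moved together in these contrasts and cannot be told apart. Thinned to 1000 UMIs per cell, 470 and 372 genes were called, and among barcodes found in 1 library 443 and 182.

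Trem2 was higher in untreated MC38 cells (3.87 ± 0.23 (SE), adjusted p = 1.04e-12) and in irradiated ones (3.58 ± 0.22 (SE), adjusted p = 4.62e-12). Apoe was higher in both as well (1.76 ± 0.33 (SE), adjusted p = 0.00197, and after radiation 1.65 ± 0.34 (SE), adjusted p = 0.00448). Of 12 macrophage markers 8 were higher in untreated MC38 and 1 was lower, where 16.9% and 17% of all genes were. The lower one was Mertk, which binds dying cells (34.99 ± 14.5 and 76.7 ± 46.1 CPM, adjusted p = 0.00917). Lyz2, encoding lysozyme, had 6020, 6777, 6578 and 6711 CPM in untreated MC38 and 3086, 992, 902 and 588 in untreated Panc02-SIY, where replicate 1 stood above the others but below every MC38 library (2.28 ± 0.44 (SE), adjusted p = 0.00269). Cd14, the endotoxin coreceptor, had 1007 ± 173 and 112 ± 38.9 CPM (3.22 ± 0.38 (SE), adjusted p = 5.02e-05).

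Of 12 monocyte genes tested, 9 were higher and 2 lower in untreated MC38, Itgal among the latter, with a median log2 fold change of 2.33. With 1 library left out 6 to 8 were higher and 2 lower, with medians between 2.095 and 2.694. After radiation 4 were higher (Fn1, Ms4a4c, Ly6c2 and Ccr2) and 2 lower, with a median of 0.31. Without irradiated MC38 replicate 4 that was 2 higher and a median of 0.07. The median was 0.49 without irradiated Panc02-SIY replicate 4, was also under 0.31 without irradiated Panc02-SIY replicate 2, and turned just below 0 with all copies kept. Fn1 had 508 ± 101 CPM against 7.69 ± 3.39 (5.73 ± 0.25 (SE), adjusted p = 1.52e-15), and Ly6c2 695 ± 348 against 43.9 ± 32.8 (4.33 ± 0.70 (SE), adjusted p = 0.000796). Spp1, encoding osteopontin, had 964, 1544, 323 and 514 CPM in untreated MC38 and 73.5, 33.3, 8.203 and 15.3 in untreated Panc02-SIY (5.05 ± 0.77 (SE), adjusted p = 0.000508), and its pooled level in Panc02-SIY, 23.3 CPM, was near the 18.6 of T cells there. Ccl2 had 799 ± 389 against 98.2 ± 46.5 CPM (3.22 ± 0.44 (SE), adjusted p = 0.000204), 1 of 5 chemokines higher in MC38 of 16 tested.

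Spic, a transcription factor of iron-recycling macrophages (chr10:88674772-88685015), had 0, 0, 2.21 and 0.592 CPM in untreated MC38, which is 3 UMIs, and 44.1, 87.6, 41.02 and 79.1 in untreated Panc02-SIY libraries. The ratio of pooled levels was 98.1 in favor of Panc02-SIY (95% exact interval 33.0 to 480, counting error only). Slc40a1, the iron exporter ferroportin (chr1:45908068-45926523), had 0, 0, 2.21 and 0 CPM, which is 2 UMIs, and 36.7, 119, 32.8 and 67.5, a ratio of 147 (40.1 to 1225). After radiation it had no UMI in MC38 and 255, 64.6, 181 and 55.6 CPM in Panc02-SIY, which was at least 112-fold higher against a floor of 3 UMIs over the MC38 group. Adamdec1, a secreted protease, was at least 214-fold higher in irradiated Panc02-SIY on the same terms. In T cells of the Panc02-SIY groups Slc40a1 had 1.15 and 1.95 CPM, far under the pooled 77.3 and 109 of the gated cells.

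Of 13 tested genes of resident scavenger macrophages, 5 were lower in untreated MC38 (Igf1, Maf, Ccl8, Mrc1 and Mertk) and 3 higher, Stab1 and Msr1 among them, where 17% and 16.9% of all genes were, with a median of -1.31. With 1 library left out the median lay between -1.65 and -0.11, nearest to 0 without untreated Panc02-SIY replicate 3 and next without replicate 2, and 3 were lower without untreated MC38 replicate 4. Ccl8, a chemokine of resident macrophages, had 150.3, 55.3, 121 and 91.8 CPM in untreated MC38 and 235, 641, 619 and 173 in untreated Panc02-SIY (-2.001 ± 0.71 (SE), adjusted p = 0.0592), with no overlap, although its call was lost without untreated MC38 replicate 2, 3 or 4 or untreated Panc02-SIY replicate 2 or 3. Vcam1, an adhesion molecule of iron-recycling macrophages that was chosen after its values were seen, had 10.6 ± 10.7 and 481 ± 197 CPM (-5.33 ± 0.62 (SE), adjusted p = 7.36e-05). Hmox1, which breaks down heme, had 46.7 ± 9.66 and 96.3 ± 19.9 (-0.95 ± 0.22 (SE), adjusted p = 0.00228), 1 of 7 genes of oxidative stress that were lower in MC38 of 15 tested. Without untreated MC38 replicate 3, 4 of the list were lower. Among cells of at least 5000 UMIs 3 were, and Hmox1 lost its call there.

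Lipid genes were called in both directions. In untreated tumors 8 of 19 were higher in MC38, Spp1, Trem2, Apoe and Cd9 among them, where 16.9% of all genes were. Another 5 were lower, Lpl, Pparg, Nr1h3, Abcg1 and Lipa, where 17% of all genes were. The median of the list was -0.28. With 1 library left out the median lay between -0.33 and 0.32, above 0 without untreated Panc02-SIY replicate 1. Lpl, the lipase that frees fatty acids, had 50.7, 13.4, 130.2 and 79.3 CPM in MC38 and 940.5, 214, 336 and 298 in Panc02-SIY (-2.51 ± 0.64 (SE), adjusted p = 0.0135). Pparg and Nr1h3 encode the nuclear receptors PPAR gamma and LXR alpha, which sense fatty acids and sterols, and Abcg1 exports cholesterol.

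Interferon genes were counted as separate lists, and the difference between the lists was not tested. In untreated MC38 35 of 57 interferon-stimulated genes were higher and 2 lower, Dtx3l among them, with a median of 0.91, and in irradiated MC38 37 were higher and the same 2 lower (1.19). Ifitm3, which blocks viral entry, had 2185 ± 400.3 and 506 ± 172 CPM (2.15 ± 0.24 (SE), adjusted p = 8.82e-06). Of the 25 genes of interferon gamma, 2 were higher (Cxcl10 and Psmb8) and 7 lower in untreated MC38, where 16.9% and 17% of all genes were. Among the 7 were Gbp3, Gbp4, Gbp5, Gbp7 and Cd274, which encodes PD-L1. The median of the 25 was -0.27. Leaving out 1 library left 6 to 10 lower and the median between -0.51 (without untreated MC38 replicate 2) and -0.16 (without untreated Panc02-SIY replicate 2 and, nearly as close to 0, without untreated MC38 replicate 4), and among barcodes found in 1 library none of 23 was lower.

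Of 23 glycolysis genes, 13 were higher in untreated and 14 in irradiated MC38, with 0 and 1 lower and medians of 1.00 and 0.75. Leaving out 1 library gave 13 to 15 and 8 to 13 higher, the 8 without irradiated MC38 replicate 4. Between the irradiated tumors 8 were higher with C1q of at least 4 per 1000 and 2 of 20 among barcodes found in 1 library. Gapdh had 2510.3 ± 288 CPM in untreated MC38 and 1025 ± 171 in untreated Panc02-SIY (1.28 ± 0.14 (SE), adjusted p = 1.28e-07), and Ldha, which makes lactate, 792 ± 119 and 344 ± 53.4 (1.204 ± 0.15 (SE), adjusted p = 1.36e-06). After radiation 12 of 18 immediate early genes and 6 of 8 MHC class II genes were higher in MC38, where 8 and 1 were untreated. Of all genes 16.7% were higher after radiation and 16.9% untreated. No gene of either list passed edgeR's test of the difference between the tumors' responses. Another 4 immediate early genes (Egr1, Dusp1, Klf2 and Zfp36) were lower in untreated MC38, and the call of Dusp1 after radiation held in 8 of 20 alternatives. Of the class II genes, 3 were higher among cells of at least 5000 UMIs and none among barcodes found in 1 library, where H2-DMa turned in direction. Ciita, the master regulator of class II, was lower in irradiated MC38 (134 ± 23.9 and 216 ± 28.3 CPM, -0.72 ± 0.20 (SE), adjusted p = 0.0111), and its call was lost without irradiated MC38 replicate 4 and its direction turned when cells were thinned. Of 27 p53 targets 14 were higher and 0 lower in irradiated MC38, and 6 were higher and 2 lower in untreated MC38. With 1 library left out 11 to 15 were higher and 0 to 1 lower after radiation. None of the 27 passed the test of the difference between the tumors' responses.

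While 9 of 12 monocyte markers were higher in untreated MC38 (6 to 8 with 1 library left out), markers of several other leukocytes were higher in the Panc02-SIY cells. All libraries of that tumor had more neutrophil markers in sum, 1006 to 2709 CPM against 91 to 224 in MC38, with S100a8 the most abundant. S100a8 had 0, 0, 1.103 and 2.96 CPM in untreated MC38 and 360, 752, 468 and 668 in untreated Panc02-SIY, while pooled T cells of untreated Panc02-SIY had 29.5. Of 9 neutrophil markers tested (of 10 listed) 8 were lower in untreated and 8 in irradiated MC38, and Retnlg was at 0 in both MC38 groups. Of the other lists 3 of 3 NK cell, 2 of 2 dendritic cell, 3 of 4 T cell and 2 of 2 B cell markers tested were lower in untreated MC38. NK cell markers, led by Gzma, summed to 5.19 to 29.1 CPM in the MC38 and 68.7 to 728 in the Panc02-SIY libraries, dendritic cell markers, led by Xcr1, to 7.21 to 39.0 and 59.0 to 876, and T cell markers, led by Trbc1, to 18.0 to 47.9 and 50.4 to 295. The 876 was that of untreated Panc02-SIY replicate 3, where Xcr1 itself had 77.9 CPM after scaling. No other Panc02-SIY library was above 188 for dendritic cell markers. B cell markers, led by Ighm, summed to 40.5 to 143 and 102 to 343 CPM, and the defining gene Cd79a was at 0 in both MC38 groups. None of the neutrophil, NK cell, dendritic cell, T cell and B cell lists had a call with radiation in either tumor. Gzma, a granzyme of killer cells, had 22.04, 368, 36.9 and 469.7 CPM in untreated Panc02-SIY, beside 1698 in T cells, and Xcr1, a receptor of type 1 dendritic cells, had 66.1, 96.4, 77.9 and 148. Their part in the tumor differences was not tested.

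**Figure D4:**
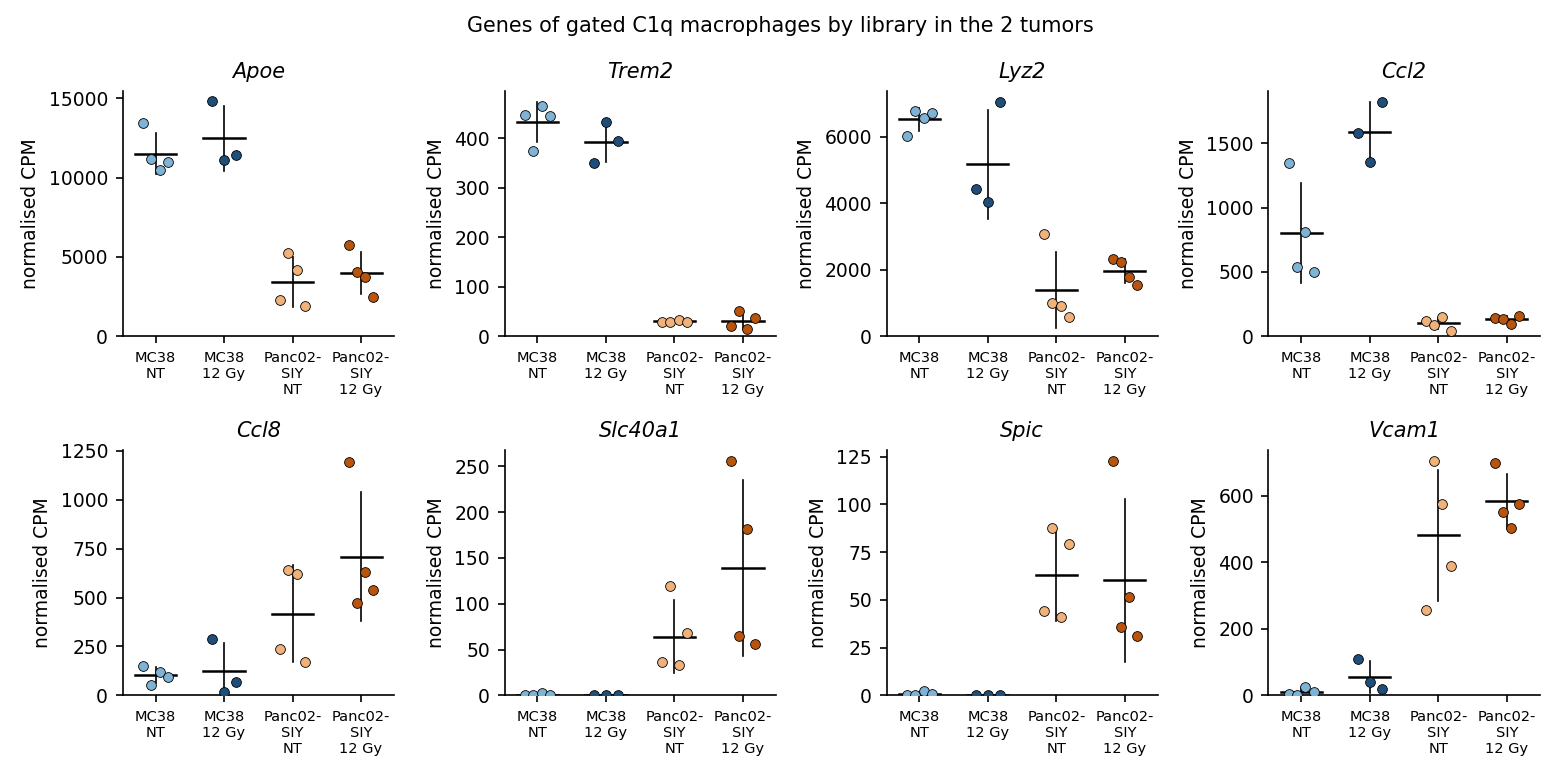
Normalised CPM of 8 genes in gated C1q macrophages of both tumors, where points are libraries (NT, untreated; 12 Gy, irradiated), bars are means and lines are SD (3 irradiated MC38 libraries and 4 in each other group). Apoe, Trem2, Lyz2 and Ccl2 lie higher in MC38, and Slc40a1, Spic and Vcam1 higher in Panc02-SIY, in every library (Trem2 433 and 29.9 in the untreated groups).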

How the data were processed

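Single-cell 3' RNA libraries of CD45+ tumor cells, enriched magnetically and then sorted alive, were made with 10x chemistry. The authors deposited raw UMI counts per gene and barcode for each of 16 libraries, made with Cell Ranger 3.1.0 on mm10 after bcl2fastq 2.20.0 (submitters' processing notes). The 31053 features were used as named. The aggregate of all libraries was not used here.

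Of 28678 barcodes, 22305 passed a minimum of 500 detected genes and a ceiling of 10% for mitochondrial UMIs. A barcode string seen in several libraries of a tumor line was kept only where its UMIs were highest, which left 16349. The automatic Scrublet threshold marked 31 barcodes (0.108%), too few to have worked, so doublets were not removed, and leaving out the top 5% by score (1427) was an alternative. The gate, its members and the gene lists were chosen with earlier results of these data known.

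UMI counts of gated cells were summed per library. Libraries with at least 10 gated cells entered 1 model of all 4 groups in edgeR 4.0.16 (R 4.3.3) with TMM scaling, a filter on low counts and the quasi-likelihood test, and every gene statement with an SE or adjusted p is from that model. P-values were adjusted by Benjamini-Hochberg over 6902 genes. Calls needed an adjusted p below 0.1 and a fold above 1.3. The 9 genes of the gate were not tested. One of them, a few other genes, and the results that rest on them are not reported here. CPM were computed here from the deposited counts, and ± marks SD over libraries (n = 4, or 3 for irradiated MC38) unless SE is written. Shares were compared over libraries by exact two-sided permutation (scipy 1.17.1), with p-values adjusted over 8 comparisons. The fit was tested on simulated data with known changes. For radiation in MC38 15 of 180 calls were false, and in Panc02-SIY 22 of 178. Changes of 1 on the log2 scale were recovered in 71.1% (MC38) and 64.2% (Panc02-SIY) of the changed genes, and changes of 2 in 99.0% in each.

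Genes could be named when they were label markers, members of the 35 lists (leukocyte markers, macrophage functions, radiation and interferon genes), or among the 10 largest rises or falls of a comparison that were called and whose groups did not overlap. Alternatives were DESeq2 1.42.0, other scaling, no filter on low counts, only the groups compared, a replicate block, thinned cells, a higher C1q limit, all barcode copies and each library left out. Libraries with at least 5 gated cells, only cells of at least 5000 UMIs, no Fcrl5 rule and only barcodes found in 1 library were added after seeing the data. Intervals cover counting error only. Promoters came from RefSeq (GRCm38.p6), and gene positions from GENCODE M21.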

Additional observations from a re-analysis of the deposited data

Results flagged for a closer look

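In 5 of 98 groups of 4 libraries examined, 1 library stood apart from the other 3 by Dixon's test at the 95% level, and chance alone marks about 1 group in 20. In untreated Panc02-SIY tumors replicate 1 had 3086 CPM of Lyz2, where the others had 588 to 992, and 940 CPM of Lpl, where the others had 214 to 336. Replicate 3 of that group had 648 CPM of Mrc1, a mannose receptor, where the others had 117 to 191. In irradiated Panc02-SIY tumors replicate 3 had 225 CPM of Ifi205, where the others had 117 to 129. In untreated MC38 tumors replicate 3 had 2.21 CPM of Slc40a1 against 0.

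Irradiated MC38 replicate 1, which the gene tests left out for its 9 gated cells, was looked at for 6 genes called higher after radiation in MC38, and all 6 stood above the highest untreated library in CPM without scaling. It had 65 CPM of Phlda3 (untreated 1.15 to 5.41), 1203 of Cdkn1a (334 to 453), 137 of Ccng1 (25.2 to 54.0), 1015 of Ifi204 (283 to 411), 442 of Klf2 (64.9 to 147) and 1548 of Dusp1 (477 to 642). These genes were chosen for their calls, and no share over all genes is given beside them, so the count has no baseline.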

How the results depend on the processing

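Over all alternatives, 2930 values of single genes kept direction and side of the threshold, 545 lost their call, 29 gained one and 19 turned in direction. Genes to which DESeq2 gave no adjusted p are left out of these. Cells per library, 9 to 352, and the shallow Panc02-SIY cells limit what can be seen, and shared barcodes limit MC38. The cause of the changes below was not tested, beyond the smaller numbers of cells, genes or libraries that some alternatives hold by construction.

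The change in the gated share with radiation turned to 0.544 points in MC38 with all barcode copies kept, and to 0.00816 (MC38) and 1.16 (Panc02-SIY) points among barcodes of at least 5000 UMIs. Between the tumors, for which no test is read, the share differed by 12.6 (untreated) and 12.5 (irradiated) points, by 31.7 and 34.5 with all barcode copies kept and by 9.66 and 9.71 without the Fcrl5 rule.

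Calls for radiation in MC38 were 237 without the filter on low counts, 23 with all copies kept, 8 in thinned cells, 299 with only the groups compared, 11 in barcodes found in 1 library and 32 to 102 with 1 library left out. In Panc02-SIY they were 320, 456, 77, 61, 55 and 58 to 202 in the same order, 95 with C1q of at least 4 per 1000, 45 among cells of at least 5000 UMIs and 78 without the Fcrl5 rule. Untreated tumors differed in 470 genes in thinned cells and 443 in barcodes found in 1 library. Irradiated tumors differed in 3740 with all copies kept, 372 in thinned cells and 182 in barcodes found in 1 library. The interaction had 40 calls without the filter, 9 by DESeq2, 38 with all copies kept, 1 in thinned cells, 2 with top doublet scores removed, 1 with C1q of at least 4 per 1000, 3 in barcodes found in 1 library and 0 to 6 with 1 library left out.

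Single genes that turned in direction are given as log2 fold changes. In thinned cells they were Ifi213 (-0.29) and Dusp1 (0.15) with radiation in Panc02-SIY, Ciita between irradiated tumors (0.013) and Fn1 in the interaction (0.039). In barcodes found in 1 library they were Ifi203 (-0.48), H2-T22 (-0.17), Klf6 (-0.40), Trem2 (0.38) and Ccl2 (-0.93) with radiation in MC38, Cx3cr1 between untreated tumors (-0.52) and H2-DMa between irradiated tumors (-0.12). Among cells of at least 5000 UMIs they were Apoe in MC38 (-0.073) and Panc02-SIY (-0.26) and Trem2 in Panc02-SIY (-0.14), and with libraries of at least 5 cells Apoe in MC38 (-0.076). Ccng1 in the interaction turned with all copies kept (-0.31). With 1 library left out Apoe (-0.024 to 0.201) in MC38 and Dusp1 (-0.235 to 0.0063) and Trem2 (lowest -0.11) in Panc02-SIY crossed 0.

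Replicate numbers were not used as a pairing in the main model. Deviations of libraries with the same number correlated above 0.1 in 1 of 14 pairs (median 0.0353, lowest -0.0155, highest 0.264). Pairs with different numbers had a median of -0.0059 and lay between -0.118 and 0.0741. Whether libraries of the same number shared a source was not tested. With the replicate number as a block 166 genes were called with radiation in MC38, 213 in Panc02-SIY, 2358 between untreated and 2158 between irradiated tumors and 0 in the interaction.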
